A study of Arabidopsis thaliana with 9 samples.

Results

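The arrays compared here come from VISUAL-CC, a tissue culture system in which cells of Arabidopsis cotyledons are led towards phloem companion cells. Moderate companion cell induction (CC-M, 3 arrays) was set against the VISUAL culture, which the labels describe as giving no companion cells (VISUAL, 3 arrays). These are 6 of the 9 arrays of the series. The other 3 come from strong companion cell induction (CC-S) and are used here to set another level beside the genes of this comparison. Every gene with a probe set that names it alone was included, which gave 16548 genes from 38408 probe sets.

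All groups were wild-type Col-0 cotyledons from seedlings grown for 6 days in liquid medium under continuous light. The protocol is worded alike for all 9 samples, and it says that cotyledons spent 48 hours in VISUAL induction medium with 1.25 mg/L 2,4-D (an auxin), 0.25 mg/L kinetin (a cytokinin) and 10 µM bikinin (an inhibitor of GSK3-like kinases, which act against brassinosteroid signalling). By that wording they were then moved to VISUAL-CC induction medium and collected 96 hours after companion cell induction. No label says how the media of CC-M, CC-S and VISUAL differed, and since VISUAL is labelled as without companion cells, whether its cotyledons were also moved to VISUAL-CC medium is not settled here. Whole cotyledons were extracted, so each array holds RNA from induced cells together with the remaining cotyledon cells. The labels give replicate numbers 3, 4 and 5 in each group and do not state separate cultures for them. The p-values therefore weigh a difference between groups only against the spread within groups, taken over all 9 arrays. That spread could be technical.

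Companion cells stand beside sieve elements in the phloem, keep the enucleate sieve elements supplied and load sugars and other solutes for long-distance transport. Both arise from procambial cells, which can also become xylem vessels with thick, xylan-rich secondary walls. In the VISUAL system, inhibition of GSK3-like kinases turns leaf mesophyll cells into procambium-like cells and then into xylem vessel elements or sieve elements.

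Labelled cRNA was hybridised to 1-colour Affymetrix arrays, and all levels are deposited log2 signals, on which a difference of 1 is a 2-fold change. The array medians lay between 4.71 and 4.90. Across genes, arrays correlated at r = 0.984 to 0.986 within CC-M, at 0.982 to 0.984 within VISUAL and at 0.967 to 0.976 between the groups. These correlations are across genes, which are not independent replicates. Replicates were not alike among the genes that changed, as the plot of the highest and lowest replicate shows. VISUAL replicate 4 was the highest VISUAL array at 58.0% of the rises in CC-M, against 31.6% of all genes, and the lowest at 50.5% of the falls, against 34.9% of all genes. CC-M replicate 3 was the highest CC-M array at 44.9% of the rises and the lowest at 47.5% of the falls, against 39.1% and 37.8% of all genes.

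**Figure D1:**
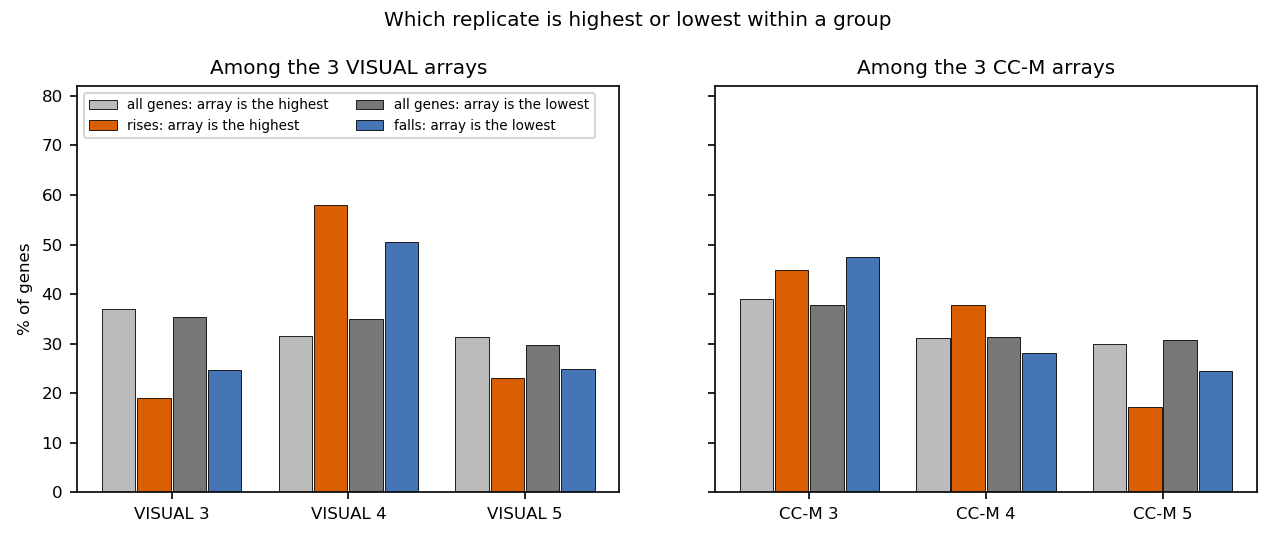
Share of genes (percent) for which each replicate gives the highest or the lowest value of its group, for VISUAL (left) and CC-M (right). Grey bars stand for all 16548 genes, orange bars for the 1044 rises and blue bars for the 937 falls. VISUAL replicate 4 lies nearest to CC-M more often among the rises (58.0%) and the falls (50.5%) than among all genes.

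With limma, a linear model with moderated variances fitted over all 9 arrays, 1981 genes differed between CC-M and VISUAL at an adjusted p under 0.05, which is 12.0% of the genes measured. A gene past this threshold is called here. Of these, 1044 (6.31%) rose in CC-M and 937 (5.66%) fell. Over all probe sets, including those that name several genes or none, 2493 (6.49%) were higher and 1977 (5.15%) lower, 11.6% in all. The median over all genes was a change of -0.01, the median rise was 0.71 and the median fall was -0.71. At least 2-fold changes were called at 584 genes (3.53%), 305 higher and 279 lower, and 60 rises and 40 falls passed 4-fold. A change of 8-fold or more was reached by 11 rises and 5 falls. The 6 values did not overlap between the groups at any of the 1981 called genes, while 4757 genes (28.7%) had no overlap. Leaving out a single array moved the total: 1036 genes were called without CC-M replicate 4, 1153 without CC-M replicate 3, 1245 without CC-M replicate 5 and 1270 without VISUAL replicate 5. Without VISUAL replicate 4 the count was 2001. The count also rests on the fit: it was 1377 (705 higher, 672 lower) when only the 2 groups were fitted, without CC-S. It was 1602 without the intensity trend. In RNA from a mixture of cells, more cells of a type and more RNA per cell cannot be told apart, and this holds for every change below.

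**Figure D2:**
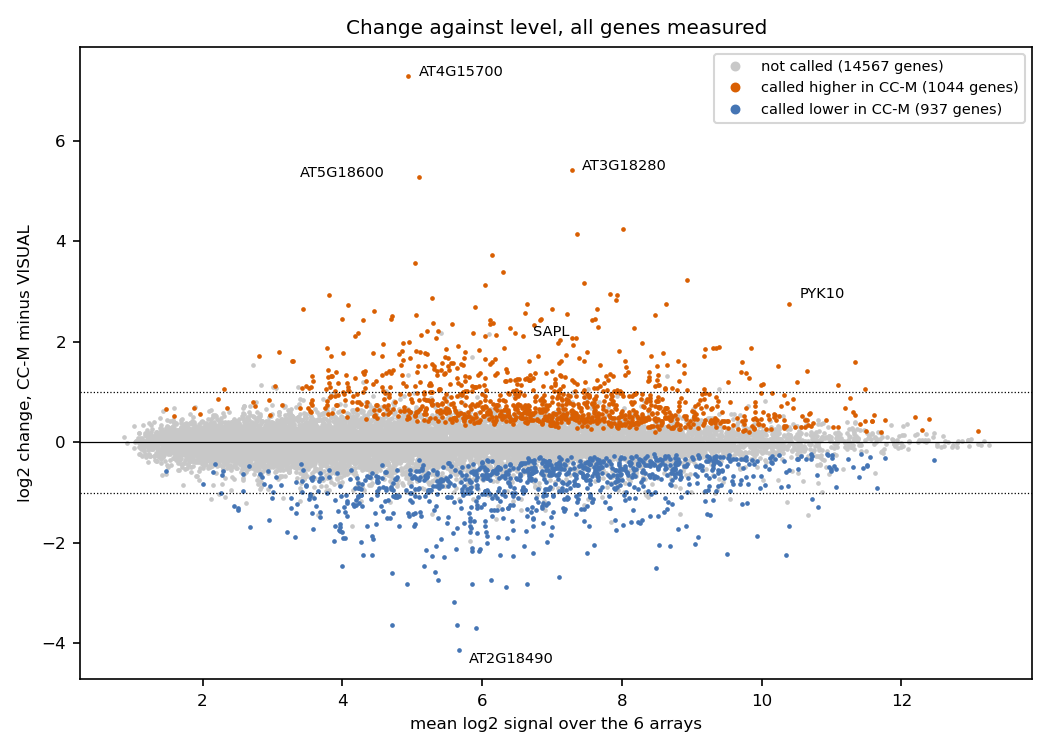
Change of each of 16548 genes (log2, CC-M minus VISUAL) against its mean log2 signal over the 6 arrays. Orange points are the 1044 genes called higher in CC-M, blue points the 937 called lower, grey points the genes not called, and dotted lines mark 2-fold. The widest changes lie at low to middle signals, and AT4G15700 stands above all other genes at 7.30.

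The largest rise was that of AT4G15700, a CC-type glutaredoxin. Glutaredoxins are small proteins that reduce or modify thiols with glutathione, and CC refers to a pair of cysteines in the active site, not to companion cells. Its log2 signal was 1.08, 1.3 and 1.5 on VISUAL replicates 3, 4 and 5 and 9.0, 8.49 and 8.29 on CC-M replicates 3, 4 and 5, the order in which values of 3 arrays are given throughout. All VISUAL arrays were near the floor of the array and all CC-M arrays were far above it. The difference was 7.30 ± 0.19 (SE, n = 3 and 3; limma adjusted p = 2.68e-06), a 157-fold rise whose size rests on VISUAL values at the 0.883 percentile of all genes. AT5G18600, another CC-type glutaredoxin, was at 1.95, 2.43 and 2.97 in VISUAL and at 7.73 on each CC-M array. The groups were far apart, and the rise of 5.28 ± 0.22 was 38.8-fold (limma adjusted p = 1.89e-05).

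AT3G18280 encodes a type II lipid transfer protein, one of the small secreted proteins that bind lipids. VISUAL gave 4.08, 5.40 and 4.21 and CC-M gave 10.34, 9.85 and 9.79. VISUAL replicate 4 was the highest VISUAL array, still far below every CC-M array. The rise was 5.43 ± 0.34, or 43.0-fold (limma adjusted p = 8.91e-05). AT3G55240, which belongs to a family of small paralogs, was at 5.78, 5.99 and 5.89 in VISUAL and at 10.54, 10.10 and 9.80 in CC-M. Its replicates were close together in both groups, and it rose by 4.26 ± 0.18 or 19.1-fold (limma adjusted p = 2.28e-05). AT1G08230, a transporter of the amino acid GABA, was at 4.74, 6.09 and 5.02 in VISUAL and at 9.63, 9.33 and 9.36 in CC-M. VISUAL replicate 4 was again the highest of its group, without overlap, and the rise was 4.15 ± 0.32 (limma adjusted p = 0.00021).

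Class III peroxidases, secreted enzymes that use hydrogen peroxide to cross-link or loosen wall polymers, made up 3 of the 20 largest rises. Prx37 was at 3.87, 4.25 and 4.73 in VISUAL and at 8.98, 7.69 and 7.38 in CC-M. CC-M replicate 3 was the highest, and the rise was 3.73 ± 0.48 (limma adjusted p = 0.00197). AT4G33420 was bright in both groups, at 6.56, 8.37 and 7.05 in VISUAL and at 10.60, 10.36 and 10.69 in CC-M. Here VISUAL replicate 4 stood above the other VISUAL arrays, and the rise was 3.22 ± 0.39 (limma adjusted p = 0.00149). AT5G64120 went from 6.15, 5.59 and 5.88 to 9.32, 8.70 and 9.11, a rise of 3.17 ± 0.25 with all CC-M arrays above all VISUAL arrays (limma adjusted p = 0.000221). PRX25 (AT2G41480) rose by 1.96, from 3.11, 3.92 and 3.76 to 5.88, 5.39 and 5.41. The list of this family holds the 7 peroxidases that the annotation names. Of these, 3 rose and 0 fell (42.9% called against 12.0% of all genes), with a median change of 0.28. It leaves out members known by locus only, such as AT4G33420. Among those, looked up after values had been seen, AT4G08780 (2.45) and AT5G64110 (0.99) rose and AT5G15180 fell (-1.63), so the list does not give the direction of the family.

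The 20 largest rises also held EXPA9, an expansin that loosens cell walls, at 5.11, 5.00 and 5.69 in VISUAL and 8.45, 7.93 and 7.70 in CC-M. No values overlapped, and EXPA9 rose by 2.76 ± 0.22 (limma adjusted p = 0.00024). AT1G65845, named by its locus only, had the smallest error among these 20 genes, with 6.17, 6.46 and 6.45 in VISUAL and 9.46, 9.0 and 9.44 in CC-M. It rose by 2.94 ± 0.14 (limma adjusted p = 3.6e-05). AT1G77640 went from 2.31, 3.43 and 2.41 to 5.51, 5.53 and 5.33, a rise of 2.74 ± 0.28 (limma adjusted p = 0.000696). Its 3 CC-M arrays were close together, while VISUAL replicate 4 was the highest VISUAL array. The other loci in this group were AT2G44380, AT3G04010, AT1G49310, AT5G36925, AT5G38940, AT2G47560, AT1G65500 and AT3G22750, with rises from 2.75 to 3.58. CC-M replicate 3 was the highest CC-M array at 15 of the 20 largest rises and VISUAL replicate 4 the highest VISUAL array at 11 of them. The 20 largest falls did not follow the order seen over all falls: VISUAL replicate 3 was the lowest VISUAL array at 12 and VISUAL replicate 4 the highest at 10, and CC-M replicate 3 was the lowest CC-M array at 4 and the highest at 10. All 20 of the largest rises kept their call when any 1 array was left out.

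**Figure D3:**
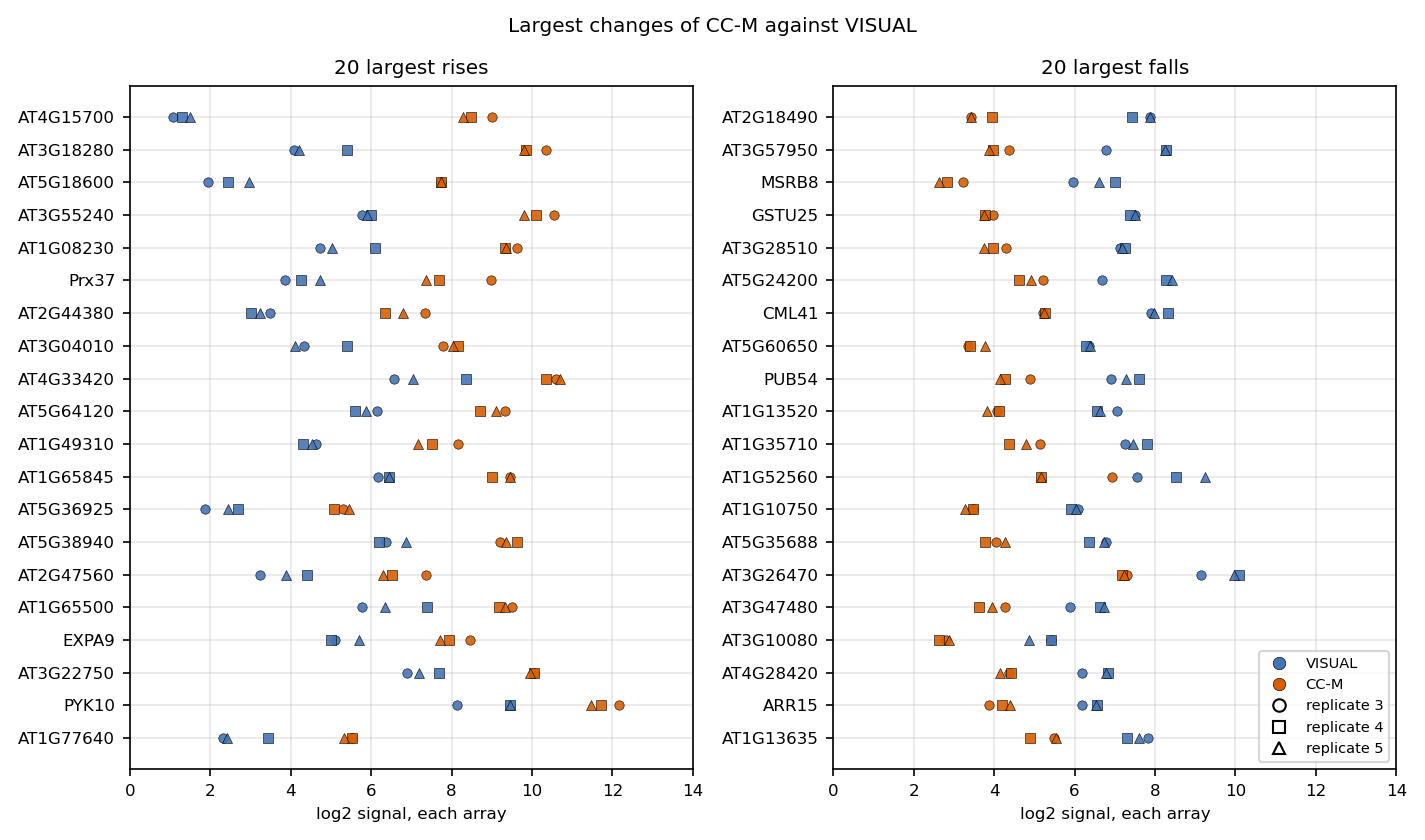
Log2 signal on each of the 3 VISUAL arrays (blue) and 3 CC-M arrays (orange) for the 20 largest rises (left) and the 20 largest falls (right), with marker shapes for replicates 3, 4 and 5. No gene has overlapping groups. VISUAL replicate 4 (blue squares) is the VISUAL array nearest to CC-M at AT3G18280, AT1G08230 and AT4G33420.

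AT2G18490, a zinc finger gene of the C2H2 type, fell furthest, from 7.89, 7.44 and 7.88 in VISUAL to 3.41, 3.93 and 3.43 in CC-M. The groups were far apart, with a change of -4.14 ± 0.26, a 17.7-fold fall (limma adjusted p = 8.9e-05). MSRB8, a methionine sulfoxide reductase that repairs oxidised methionines, was at 5.95, 7.01 and 6.62 in VISUAL and at 3.23, 2.82 and 2.63 in CC-M. It was lower on every CC-M array, by -3.63 ± 0.42 or 12.4-fold (limma adjusted p = 0.00116). GSTU25, a glutathione transferase of the tau class, which joins glutathione to reactive compounds, went from 7.5, 7.37 and 7.51 to 3.96, 3.77 and 3.74. It had the smallest error among the 20 largest falls, with a change of -3.63 ± 0.13 (limma adjusted p = 1.26e-05).

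AT3G28510, an AAA-ATPase gene, was at 7.12, 7.26 and 7.19 in VISUAL and at 4.29, 3.98 and 3.75 in CC-M. It fell without overlap, with a change of -3.18 ± 0.19 (limma adjusted p = 8.1e-05). CML41, a calmodulin-like protein of plasmodesmata, the channels between plant cells, went from 7.90, 8.32 and 7.97 to 5.21, 5.27 and 5.23. The CC-M arrays were nearly equal, and the change was -2.83 ± 0.22 (limma adjusted p = 0.000196). PUB54, of the plant U-box family of ubiquitin ligases, went from 6.90, 7.59 and 7.28 to 4.90, 4.27 and 4.15, a change of -2.82 ± 0.23 (limma adjusted p = 0.000254). ARR15, a type-A response regulator that dampens cytokinin signalling, was at 6.18, 6.56 and 6.54 in VISUAL and at 3.87, 4.19 and 4.40 in CC-M. Every CC-M array was lower, and the change was -2.27 ± 0.36 (limma adjusted p = 0.00505).

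The remaining large falls are known by locus: AT3G57950, AT5G24200, AT5G60650, AT1G13520, AT1G35710, AT1G52560, AT1G10750, AT5G35688, AT3G26470, AT3G47480, AT3G10080, AT4G28420 and AT1G13635, with changes from -3.71 to -2.27. AT1G52560 had the widest spread of the 20. It was at 7.56, 8.51 and 9.24 in VISUAL and at 6.94, 5.16 and 5.17 in CC-M. CC-M replicate 3 lay near VISUAL replicate 3, and the call (change -2.68 ± 0.62, limma adjusted p = 0.0254) ended without VISUAL replicate 4 or 5 or CC-M replicate 4 or 5, at adjusted p from 0.0586 to 0.0932. The other 19 falls kept their call without any 1 array.

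Genes of phloem and companion cells were scarcely represented. Of the genes listed as markers, 4 of 13 for companion cells and 3 of 17 for sieve elements had a probe set of their own. The others were not analysed here. SAPL, a MYB-type factor of companion cells related to the phloem regulator APL, rose from 4.87, 5.66 and 6.03 to 7.99, 7.43 and 7.52. No values overlapped, and the change was 2.12 ± 0.29 (limma adjusted p = 0.00239). SWEET11, which exports sucrose from phloem parenchyma for loading, was at 7.22, 9.10 and 7.65 in VISUAL and at 9.99, 8.99 and 8.94 in CC-M. VISUAL replicate 4 lay above 2 of the CC-M arrays, and the difference of 1.31 ± 0.48 was not called (limma adjusted p = 0.131), whereas it was called at 0.0171 without that array. NHL26 (AT5G53730), a plasmodesmal protein of companion cells, was at 7.63, 7.83 and 7.77 against 7.10, 7.20 and 7.30, a difference of -0.54 (limma adjusted p = 0.171), and SWEET13 differed by -0.10. The summed linear signal of these 4 genes was 385.9 to 833.1 in VISUAL and 834 to 1413 in CC-M, ranges that nearly touch. SWEET11, which was not called, had the highest mean of the 4 in both groups and weighs most in this sum. Since SWEET11 acts in phloem parenchyma, the sum does not stand for companion cells alone. NHL26 and SWEET13 had lower means in CC-M.

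None of the 4 genes of the sieve element and early phloem list was called by limma (0 at an unadjusted p under 0.05), and their median change was -0.20. They were CLE25, CLE26, CLE45 and OPS, a polarity protein of protophloem. OPS was at 4.80, 4.80 and 4.67 in VISUAL and at 4.81, 4.61 and 4.62 in CC-M, so that the groups overlapped. The 3 sieve element markers summed to 40.93 to 45.68 in VISUAL and to 40.7 to 45.77 in CC-M on the linear scale, and CLE45 lay near the floor at 2.04.

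Xylem wall genes were lower in CC-M. Of the 6 measured members of that list 4 fell and 0 rose, or 66.7% called against 12.0% of all genes, with a median change of -1.04. TBL31 and TBL33, which add acetyl groups to xylan, were lower on every CC-M array. TBL31 went from 5.79, 5.55 and 5.82 to 4.42, 3.99 and 4.47, with a change of -1.43 ± 0.22 (limma adjusted p = 0.00443). TBL33 went from 9.48, 9.05 and 9.25 to 8.06, 7.78 and 8.38, with a change of -1.19 ± 0.21 (limma adjusted p = 0.00821).

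IRX15 and IRX10 (GUT2 on the array) act in the making of the xylan backbone. IRX15 was at 7.15, 6.43 and 6.17 in VISUAL and at 4.90, 4.67 and 5.65 in CC-M. GUT2 was at 11.07, 10.53 and 10.58 in VISUAL and at 9.90, 9.49 and 10.11 in CC-M. The groups did not overlap for either gene, with changes of -1.51 (limma adjusted p = 0.0268) and -0.89 (0.0352). The IRX15 call ended without VISUAL replicate 3 or CC-M replicate 3 or 4, at adjusted p up to 0.0967. The GUT2 call ended without VISUAL replicate 3 or 5 or CC-M replicate 3 or 4, at up to 0.116. So 2 of the 6 xylem genes were called without VISUAL replicate 3, CC-M replicate 3 or CC-M replicate 4. Summed over the 3 xylem markers measured of 12, which are IRX10, IRX15 and IRX15-L and so belong to this list too, the linear signal was 2062 to 2969 in VISUAL and 1002 to 1754 in CC-M. GUT2 had the highest mean of the 3 in both groups and weighs most in this sum. IRX15-L differed by -0.65, overlapped between the groups and was not called (limma adjusted p = 0.291).

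Procambium genes moved in both directions. Of 9 measured, 1 rose and 2 fell (33.3% called against 12.0% of all genes), with a median of 0.19. The falls were ARR15, described above, and CLE42, a peptide of the family that keeps procambium dividing and holds back xylem, at 5.98, 5.82 and 5.64 against 5.04, 5.29 and 4.86 (change -0.74, limma adjusted p = 0.0199). The rise was that of ARR16 (RR16 on the array), a type-A regulator like ARR15, from 9.36, 9.41 and 9.55 to 9.91, 10.54 and 9.91 (change 0.68, limma adjusted p = 0.0291). The 2 type-A regulators thus moved in opposite directions, and ARR15 was the larger change. The ARR16 call ended without VISUAL replicate 3, 4 or 5, the CLE42 call without VISUAL replicate 3 or CC-M replicate 3 or 5, and without VISUAL replicate 3 only 1 of the 9 genes was called. CLE41 and CLE44, which encode the same peptide, TDIF, differed by 0.56 and 0.83 and were not called (limma adjusted p = 0.126 and 0.116). The 6 procambium markers measured of 8 summed to 648.6 to 858.3 in VISUAL and to 974.4 to 1131 in CC-M. Of these 6 limma called 0. CLE44, LHW and CLE41 had the highest means of the 6 in both groups and weigh most in this sum. The part of these markers in the changes of other genes was not tested.

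Among 16 measured genes of auxin response and transport, 3 rose and 1 fell (25% called against 12.0% of all genes), with a median of 0.04. LBD16, a factor induced by auxin in lateral root founder cells, was at 3.50, 3.46 and 3.38 in VISUAL and at 6.24, 5.79 and 5.86 in CC-M. GH3.5 (WES1 on the array), which joins auxin and salicylate to amino acids, went from 6.63, 7.27 and 7.17 to 9.60, 9.21 and 9.12. Both were higher on every CC-M array, LBD16 by 2.52 ± 0.25 (limma adjusted p = 0.000584) and GH3.5 by 2.29 ± 0.20 (0.00031). GH3.9 (0.58) and IAA30 (-1.38) were also called, and these calls ended without any of 5 and 7 of the 9 arrays, so that 2 genes of the list were called without VISUAL replicate 5, CC-M replicate 4 or CC-M replicate 5.

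Brassinosteroid genes numbered 5, of which 1 rose and 1 fell (40% called against 12.0% of all genes). BIM1, a partner of the transcription factor BES1, rose from 8.53, 8.95 and 8.59 to 9.56, 9.5 and 9.57 (change 0.85 ± 0.11, limma adjusted p = 0.00208). EXPA8, an expansin, fell from 5.85, 5.48 and 5.83 to 4.39, 4.89 and 5.04 (change -0.95 ± 0.19, limma adjusted p = 0.0136). EXO, a cell wall protein induced by brassinosteroid, overlapped between the groups at 8.03, 8.17 and 7.87 against 7.87, 8.0 and 7.77 (difference -0.15, limma adjusted p = 0.703).

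**Figure D4:**
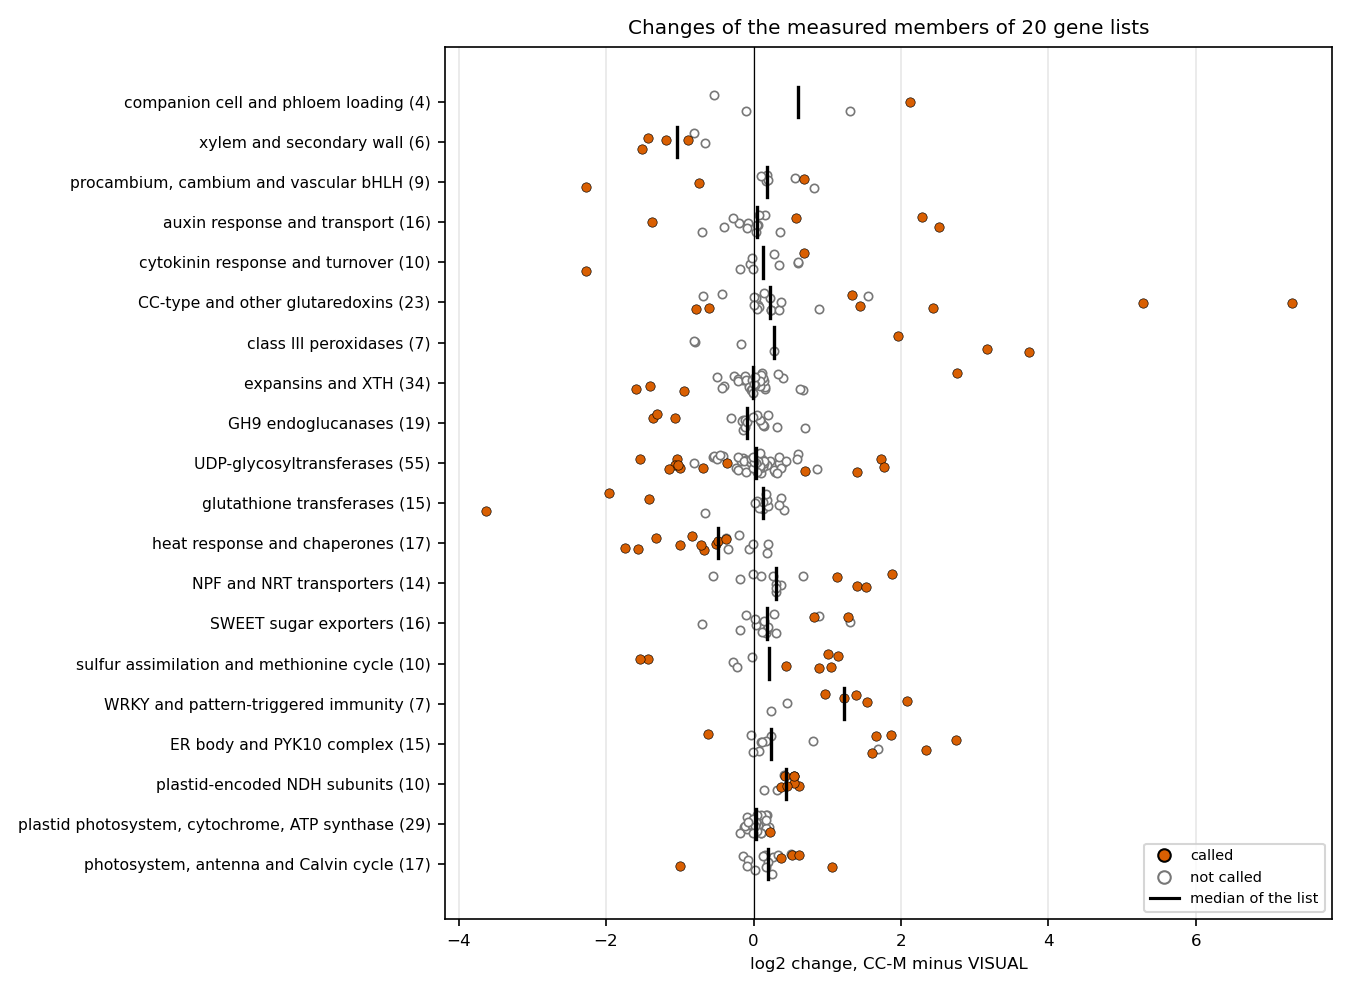
Change of each measured member of 20 gene lists (log2, CC-M minus VISUAL), with the number measured in brackets. Filled points are called genes, open points are not called, and vertical bars are list medians. The xylem list lies to the left of 0 (median -1.04), the NDH subunits to the right (0.45), and most other lists hold points on both sides.

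Glutaredoxins changed in both directions. Of 23 measured genes, 5 rose and 2 fell (30.4% called against 12.0% of all genes), with a median of 0.22. The rises were AT4G15700 and AT5G18600, described above, AT4G15670, AT4G15690 and AT2G30540. AT4G15670 went from 3.18, 2.93 and 3.13 to 6.22, 5.00 and 5.32, a rise of 2.43 ± 0.33 on every CC-M array (limma adjusted p = 0.00245). AT4G15690 went from 3.38, 3.07 and 3.71 to 4.86, 4.63 and 4.69, a rise of 1.34 (limma adjusted p = 0.00503). In the same tandem cluster on chromosome 4, AT4G15660 and AT4G15680 differed by 1.55 and 0.88 and were not called (limma adjusted p = 0.0611 and 0.101), and cross-hybridisation between these near-identical genes was not analysed here. The falls were GrxC5 (-0.78) and GRXC2 (-0.60), which carry other active sites. Calls of AT2G30540, GrxC5 and GRXC2 ended without CC-M replicate 3, among other arrays, and 4 of the 23 genes were called without it.

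The detoxification genes measured included glutathione transferases and UDP-glycosyltransferases, which attach glutathione or sugars to small molecules. Of 15 glutathione transferases, 3 fell and 0 rose (20% called against 12.0% of all genes), with a median of 0.12, and 12 were not called. GSTU22 went from 5.38, 4.39 and 4.80 to 3.03, 2.52 and 3.13, a change of -1.96 ± 0.29 (limma adjusted p = 0.00404). GSTF3 changed by -1.41 (limma adjusted p = 0.0204), a call that ended without VISUAL replicate 3 or CC-M replicate 4 or 5, and 2 of the 15 were called without each of these.

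Of 55 UDP-glycosyltransferases, 4 rose and 8 fell (21.8% called against 12.0% of all genes), with a median of 0.04. The members of the UGT73B group fell together: UGT73B2, the brightest, went from 9.17, 8.96 and 9.02 to 7.44, 7.59 and 7.51. This was a change of -1.54 ± 0.15 with no overlap (limma adjusted p = 0.000518), beside -1.04 for UGT73B3, -1.06 for UGT73B1 and -1.02 for UGT73B5. UGT73B1 to UGT73B3 lie next to each other on chromosome 4 and are alike in sequence, and cross-hybridisation between them was not analysed here. UGT73D1 (-1.15), UGT74F1 (-1.0), which glucosylates salicylate, and UGT72E1 (-0.68), which glucosylates lignin precursors, also fell. UGT85A2 rose from 7.89, 8.72 and 8.34 to 9.93, 10.26 and 9.93, by 1.72 ± 0.20 (limma adjusted p = 0.00109). UGT74B1, which adds the sugar of glucosinolates, rose by 1.40 ± 0.20 (limma adjusted p = 0.00296). The calls of UGT73B5, UGT71C5 (0.70), GT72B1 (1.77) and UGT71C4 (-0.35) ended without several single arrays, and 8 of the 55 were called without VISUAL replicate 5 or without CC-M replicate 3, 4 or 5.

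DTX50 (AT5G52050), an efflux carrier for abscisic acid, rose from 2.93, 3.27 and 3.22 to 5.25, 5.28 and 5.42, by 2.18 ± 0.17 (limma adjusted p = 0.000201). STZ (ZAT10), a zinc finger repressor of stress responses, rose from 7.04, 7.61 and 7.51 to 8.41, 9.02 and 8.94, by 1.40 ± 0.21 (limma adjusted p = 0.00381). Both were higher on every CC-M array. Of 7 methionine sulfoxide reductases, 2 fell and 0 rose (28.6% called against 12.0% of all genes), with a median of -0.38. That list was drawn up after values had been seen. MSRB4 fell beside MSRB8, by -0.94, in a call that ended without 7 of the 9 arrays.

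Among 34 expansins and xyloglucan endotransglucosylases, which remodel walls, 1 rose (EXPA9) and 3 fell (11.8% called against 12.0% of all genes), with a median of -0.01. XTH19, which cuts and rejoins xyloglucan, fell from 4.19, 3.76 and 4.18 to 2.24, 2.87 and 2.80, a change of -1.41 ± 0.21 (limma adjusted p = 0.00379). EXPA4 changed by -1.60 (limma adjusted p = 0.018), a call that ended without VISUAL replicate 3 or 5 or CC-M replicate 4 or 5.

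GH9 endoglucanases cut cellulose-like glucans and were listed after values had been seen. Of 19 measured, 3 fell and 0 rose (15.8% called against 12.0% of all genes), with a median of -0.09. GH9B7 was at 8.63, 8.17 and 8.25 in VISUAL and at 7.28, 7.18 and 7.40 in CC-M, lower on every array by -1.06 ± 0.16 (limma adjusted p = 0.00355). GH9B5 (-1.36) and GH9C2 (-1.31) were called with all arrays, and 1 of the 19 genes was called without VISUAL replicate 5 or without CC-M replicate 4. The wider TBL family, listed in the same way, held 3 rises and 3 falls among 24 acetyltransferase genes. In that list 25% were called against 12.0% of all genes, with a median of 0.03. Beside TBL31 and TBL33, TBL40 (AT2G31110) fell by -1.10 while TBL41 and TBL37 rose by 0.96 and 1.02. TBL32 also rose, by 0.42 (limma adjusted p = 0.0311), in a call that ended without any of 6 of the 9 arrays.

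The NPF and NRT families carry nitrate, peptides and glucosinolates. Among 14 measured members, 4 rose and 0 fell (28.6% called against 12.0% of all genes), with a median of 0.31. GTR2 (NPF2.11), which imports glucosinolates into cells of the phloem, was at 8.75, 9.11 and 9.18 in VISUAL and at 10.39, 10.43 and 10.41 in CC-M. The CC-M arrays were nearly equal, and the rise was 1.40 ± 0.10 (limma adjusted p = 0.00017). NPF6.2 (AT2G26690) went from 8.88, 9.17 and 8.66 to 10.60, 11.0 and 10.77, a rise of 1.88 ± 0.16 (limma adjusted p = 0.000291). NRT2.5, a high-affinity nitrate transporter, rose by 1.13 ± 0.20 (limma adjusted p = 0.00827). NPF4.3 (AT1G59740) rose from 8.25, 7.57 and 7.80 to 9.82, 9.21 and 9.18, by 1.53 ± 0.31 (limma adjusted p = 0.0154), a call that ended without VISUAL replicate 5 or CC-M replicate 3. GTR1, the relative of GTR2, differed by 0.38 and was not called (limma adjusted p = 0.0731).

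Of 16 SWEET sugar exporters, 2 rose and 0 fell (12.5% called against 12.0% of all genes), with a median of 0.18. SWEET4 went from 3.45, 4.1 and 3.08 to 5.08, 4.72 and 4.67 (change 1.28 ± 0.25, limma adjusted p = 0.0132), a call that ended at 0.0509 without CC-M replicate 3. SWEET17, a fructose carrier of the vacuole, changed by 0.83 (limma adjusted p = 0.039) in a call that ended without VISUAL replicate 3 or 5, CC-M replicate 4 or 5 or CC-S replicate 4. Of 5 sucrose, hexose and polyol transporters limma called 0 (1 at an unadjusted p under 0.05). That gene was TMT1, a sugar importer of the vacuole, with a difference of 0.48 (adjusted p = 0.0679), called at 0.0164 without VISUAL replicate 4.

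Some genes of pattern-triggered immunity, the response to microbial molecules at the cell surface, rose. This list of 7 was drawn up after values had been seen, so its share of calls does not give the direction of the response. It held 5 rises and 0 falls (71.4% called, against 12.0% of all genes), with a median of 1.23. All 5 calls were kept without any 1 array, and at least 2 in each other setting. EFR, the receptor of a bacterial elongation factor, was at 4.30, 5.35 and 5.20 in VISUAL and at 6.53, 6.42 and 6.52 in CC-M. BIK1, the cytoplasmic kinase that immune receptors act through, was at 9.61, 9.90 and 9.49 in VISUAL and at 10.59, 10.74 and 10.60 in CC-M. Neither overlapped between the groups, with rises of 1.54 ± 0.25 (limma adjusted p = 0.00585) and 0.98 ± 0.10 (0.00079).

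WRKY29 and WRKY22, transcription factors that act downstream of these receptors, were higher on every CC-M array. WRKY29 went from 6.01, 6.31 and 6.43 to 8.03, 8.49 and 8.48, a rise of 2.09 ± 0.16 (limma adjusted p = 0.000209). WRKY22 went from 5.93, 6.05 and 6.22 to 7.22, 7.29 and 7.84, a rise of 1.39 ± 0.16 (limma adjusted p = 0.00119). PUB23, a ubiquitin ligase that dampens this response, rose by 1.23 ± 0.18 (limma adjusted p = 0.00351), while PUB22 (0.45) and PUB24 (0.23) were not called (limma adjusted p = 0.138 and 0.244). WRKY41 went the other way, from 5.90, 5.97 and 5.71 to 4.37, 3.86 and 4.37 (change -1.66 ± 0.16, limma adjusted p = 0.000522). Of 30 genes of salicylate, jasmonate and pathogen response, 4 rose and 2 fell (20% called against 12.0% of all genes), with a median of -0.01. Those falls were CML41 and PUB54, and beside PUB23 the defensin genes LCR69 (1.17), PDF1.4 (1.07) and LCR68 (1.31) rose. The LCR68 call ended without any of 8 of the 9 arrays.

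PYK10 is the beta-glucosidase stored in ER bodies, spindle-shaped stores of the endoplasmic reticulum in seedlings and roots that act against herbivores. Its log2 signal was 8.14, 9.46 and 9.46 in VISUAL and 12.16, 11.70 and 11.46 in CC-M. The groups did not overlap and VISUAL replicate 3 was the lowest array, with a rise of 2.75 ± 0.36 (limma adjusted p = 0.0022). NAI2, which is needed to form ER bodies, went from 7.51, 8.88 and 8.40 to 10.26, 10.33 and 9.78, a rise of 1.86 ± 0.33 (limma adjusted p = 0.00902). GLL23 (AT1G54010), a lipase-like protein of the complex PYK10 forms when tissue is crushed, went from 5.16, 6.00 and 5.55 to 8.67, 7.72 and 7.34, a rise of 2.34 ± 0.41 (limma adjusted p = 0.0087).

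The jacalin-related lectins JAL34 (1.66) and JAL33 (1.61) of the same complex also rose. They are neighbours on chromosome 3, cross-hybridisation between them was not analysed here, and the call of JAL33 ended without CC-M replicate 3 or 4. JAL22 differed by 1.69 and was not called (limma adjusted p = 0.0595). In all, 5 of 15 genes of ER bodies and the PYK10 complex rose and 1 fell, with a median of 0.24. The list was drawn up after values had been seen, and 40% of it was called against 12.0% of all genes. The fall was that of BGLU25 (-0.61), and NAI1, a factor required for ER bodies, differed by 0.24 (limma adjusted p = 0.491). Among all 24 beta-glucosidases, listed in the same way, 2 rose and 3 fell, with a median of 0.01. In that list 20.8% were called against 12.0% of all genes. BGLU28 fell furthest, from 11.69, 11.23 and 11.49 to 9.30, 9.37 and 9.01 (change -2.24 ± 0.48, limma adjusted p = 0.0193). Its call ended without VISUAL replicate 3 or 5 or without any CC-M array, at up to 0.0652, and 2 of the 24 genes were called without VISUAL replicate 3 or CC-M replicate 5.

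Many genes of the heat response and of protein folding were lower in CC-M. Of 17 measured, 10 fell and 0 rose (58.8% called against 12.0% of all genes), with a median of -0.48. This list was extended after values had been seen. Fes1A, which protects Hsp70 chaperones, went from 8.33, 8.19 and 8.27 to 7.42 on each CC-M array. FKBP65 (AT5G48570, also ROF2), a heat-induced immunophilin, went from 7.81, 7.85 and 7.89 to 6.56, 6.28 and 6.73. DREB2C, a factor that activates heat genes, went from 7.13, 6.62 and 6.24 to 4.91, 5.18 and 5.19.

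Each of these was lower on every CC-M array, with changes of -0.84 ± 0.10 for Fes1A (limma adjusted p = 0.00127), -1.33 ± 0.16 for FKBP65 (0.00168) and -1.57 ± 0.29 for DREB2C (0.01). The co-chaperones Hop2 (-0.48) and Hop3 (-1.0) and the small chaperone BOB1 (-0.50) fell as well. Calls of Hsp70-2 (-0.67), HSP22.0 (-1.74, ATHSP22.0 on the array), HSA32 (-0.71) and bZIP28 (-0.37, BZIP28 on the array) ended without several single arrays, and 6 of the 17 were called without CC-M replicate 3, 4 or 5. HSP22.0 had the widest spread, at 3.78, 5.25 and 5.43 in VISUAL and 3.49, 3.02 and 2.74 in CC-M.

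Sulfur metabolism held changes in both directions. Of 10 genes, listed after values had been seen, 5 rose and 2 fell (70% called against 12.0% of all genes), with a median of 0.21. SIR, the sulfite reductase, went from 9.18, 9.87 and 9.19 to 10.84, 10.44 and 10.39, a rise of 1.14 ± 0.20 (limma adjusted p = 0.00907). CBL, which here is cystathionine beta-lyase of methionine synthesis, rose by 0.88 ± 0.16 (limma adjusted p = 0.00919), and MGL, a methionine gamma-lyase, by 1.05 ± 0.19 (0.0101). APS4, an ATP sulfurylase (1.0), and SAMDC, of polyamine synthesis (0.44), were called too. HMT-1, a homocysteine methyltransferase, fell from 10.40, 9.57 and 9.95 to 8.41, 8.28 and 8.91, by -1.44 ± 0.22 (limma adjusted p = 0.00418). SUFE2, which helps to build iron-sulfur clusters in plastids, fell by -1.54 ± 0.24 (limma adjusted p = 0.00489). The calls of APS4 and SAMDC ended without CC-M replicate 4, among other arrays for APS4, and 5 of the 10 were called without it.

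**Figure D5:**
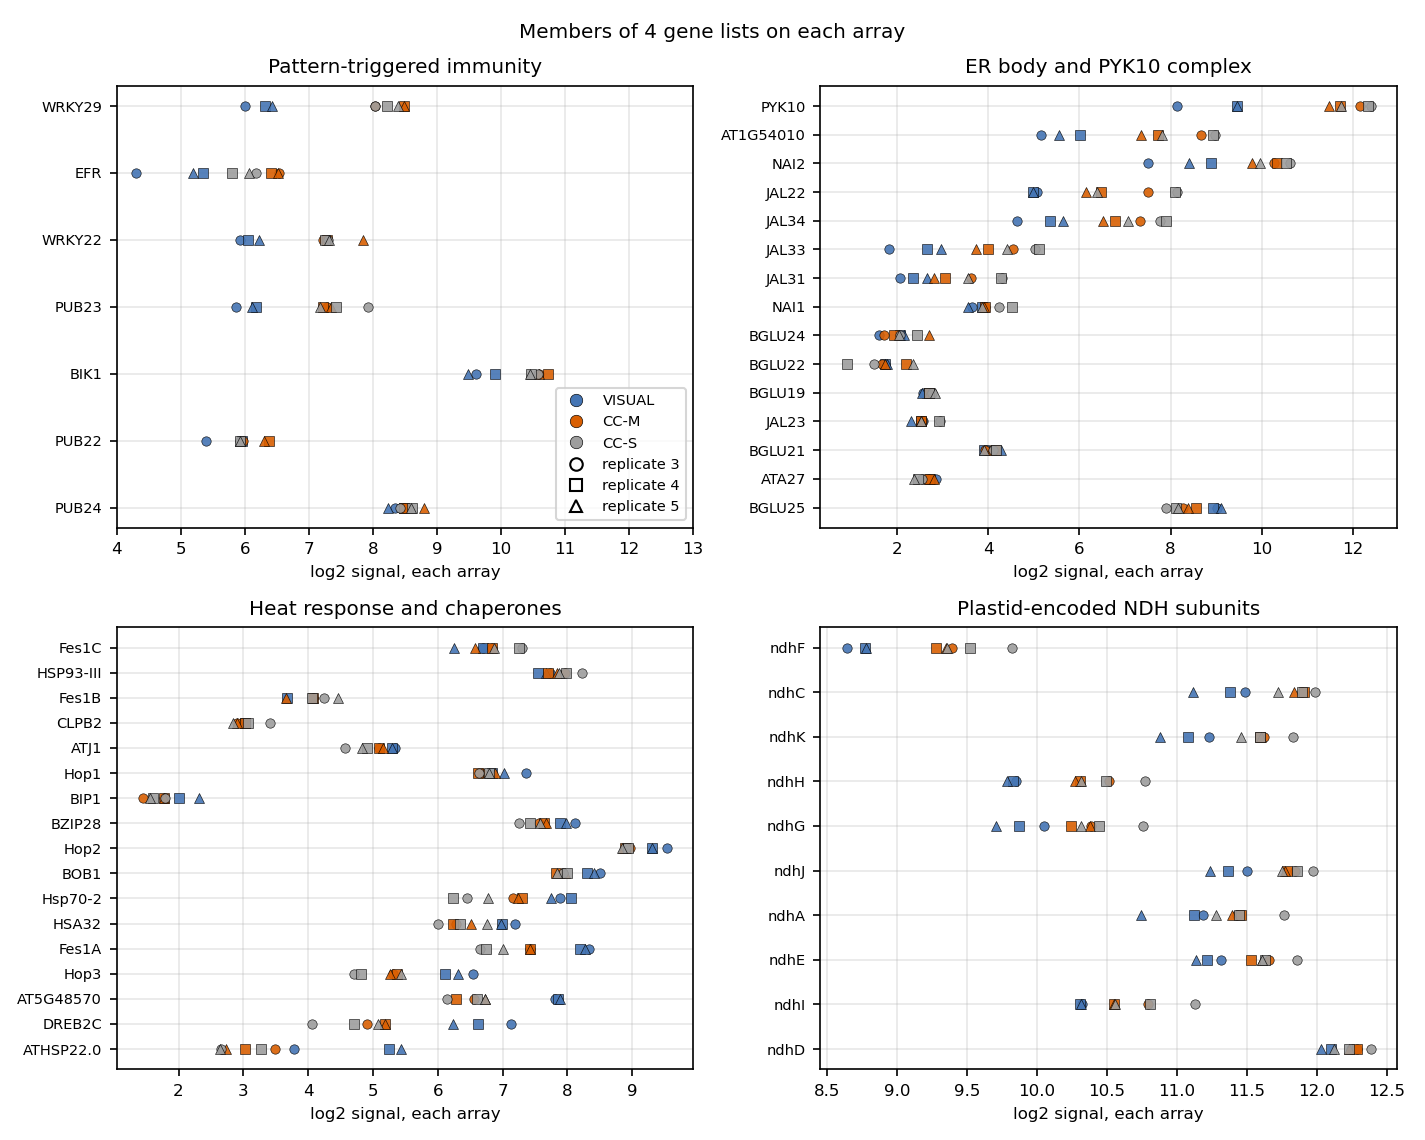
Log2 signal on each array of VISUAL (blue), CC-M (orange) and CC-S (grey) for the members of 4 gene lists, with marker shapes for replicates 3, 4 and 5. All 10 NDH subunits have a higher mean in CC-M than in VISUAL, 15 of the 17 heat genes a lower one, and the PYK10, NAI2 and WRKY29 arrays of CC-M lie above all their VISUAL arrays.

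The plastid genome was represented by 63 genes, of which 12 rose and 0 fell, with a median of 0.14. Over all genes measured, 6.31% rose and 5.66% fell. The plastid genes were split by function into lists drawn up after values had been seen, and the difference between these lists was not tested. Of 10 subunits of the NDH complex, which carries electrons around photosystem I, 7 rose (70% called), with a median of 0.45 and a higher mean in CC-M for all 10. ndhF went from 8.64, 8.77 and 8.78 to 9.40, 9.28 and 9.35, a rise of 0.61 ± 0.11 (limma adjusted p = 0.0101). ndhC rose by 0.55 ± 0.10 and ndhJ by 0.43 ± 0.08 (limma adjusted p = 0.0103 for each). For these 3 genes every CC-M array was above every VISUAL array, and ndhK (0.54), which lies between ndhC and ndhJ in the plastid genome, rose as well. Without CC-M replicate 3 the count of 7 went to 3, and without VISUAL replicate 5 to 4.

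Of 17 plastid genes for ribosomal proteins and RNA polymerase, 4 rose (23.5% called against 12.0% of all genes), with a median of 0.32. They were led by rpl14 (12.35, 12.14 and 12.01 against 12.69, 12.63 and 12.58, a rise of 0.47 ± 0.09, limma adjusted p = 0.0102). The others were rps16 (0.62), rps19 (0.72) and rps18 (0.49), and 1 of the 17 was called without CC-M replicate 3. Of 29 plastid genes for photosystems, the cytochrome complex and ATP synthase 1 rose (3.45% called against 12.0% of all genes). The gene that rose was atpH (0.22), whose call ended without any of 8 arrays. The median change of the 29 was 0.04.

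Nuclear genes of photosystems, antennae and the Calvin cycle numbered 17, with a median change of 0.20. Of these, 4 rose and 1 fell (29.4% called against 12.0% of all genes). PSB27, which helps to assemble photosystem II, rose from 6.90, 6.57 and 6.28 to 7.78, 7.53 and 7.61, by 1.06 ± 0.15 (limma adjusted p = 0.0035). CURT1A (AT4G01150), which curves thylakoid membranes, rose by 0.62 ± 0.10 (limma adjusted p = 0.00527), and HPR, the hydroxypyruvate reductase of photorespiration, by 0.53 ± 0.08 (0.00467). LHCB4.3, an antenna protein, fell from 5.47, 5.47 and 5.46 to 4.29, 4.49 and 4.62, by -1.0 ± 0.15 (limma adjusted p = 0.00425). The 4 mesophyll markers measured of 8 summed to 1803 to 2390 in VISUAL and to 2252 to 2402 in CC-M on the linear scale, so that the ranges overlapped. The 3 guard cell markers measured of 8 summed to 198.5 to 254.5 and to 183.5 to 232.5. Their part in the changes of plastid and photosystem genes was not tested.

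Of 14 genes for cyclins, replication and mitosis 1 rose (7.14% called against 12.0% of all genes), with a median of 0.06. It was SIM, an inhibitor of cyclin-dependent kinases, at 5.86, 5.89 and 6.10 against 6.45, 6.45 and 6.48 (change 0.51, limma adjusted p = 0.0297), and its call ended without VISUAL replicate 3 or 4 or any CC-M array. Of 5 core histone genes limma called 0 (1 at an unadjusted p under 0.05), with a median of -0.17. That gene was HTR12, the histone H3 variant of centromeres, with a difference of -0.34 (adjusted p = 0.0994).

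Some neighbouring genes changed together. Among 10400 pairs of adjacent measured genes, both rose in 72 pairs, both fell in 47 and 65 held a rise and a fall. Of the neighbours of a rise 11.5% rose, against 6.31% of all genes, and of the neighbours of a fall 8.33% fell, against 5.66%. Some pairs are tandem copies, such as Prx37 and AT4G08780, with rises of 3.73 and 2.45, where cross-hybridisation was not analysed either. Others moved apart: AT1G51840 changed by -2.06 and its neighbour AT1G51850 by 2.15.

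CC-S gives another level beside these values. Tested directly against CC-M in the same fit, 3 genes were called by limma (0.0181% of those measured), and 1998 had an unadjusted p under 0.05 (12.1%). At the 20 largest rises the CC-S mean was above that of CC-M in 17 and below in 3, with CC-S minus CC-M from -1.69 to 1.79 and adjusted p from 0.0532 to 0.912. The 95% interval of this difference excluded 0 at 9 of them, 8 above and 1 below. At the 20 largest falls the CC-S mean was below that of CC-M in 16, with differences from -1.05 to 1.24 and adjusted p from 0.0697 to 0.994. The interval excluded 0 at 7 of these, 5 below and 2 above. These 20 rises and 20 falls were chosen on their CC-M values, which CC-S minus CC-M also uses, so these differences are not independent of that choice. Over all calls, the CC-S mean was above that of CC-M at 678 of the 1044 rises and below it at 641 of the 937 falls.

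Individual genes showed how wide that range was. AT4G15700 had a CC-S mean of 9.31, 0.71 above CC-M (limma adjusted p = 0.163), and EXPA9 one of 9.56, 1.53 above CC-M with an interval from 1.03 to 2.04 (0.0532). MSRB8 had nearly the same mean in both, 2.91 in CC-S, a difference of 0.01 with an interval from -0.94 to 0.97. AT1G77640 was lower in CC-S (3.76) than in CC-M, by -1.69 with an interval from -2.34 to -1.05 (limma adjusted p = 0.0648), and AT3G10080, which fell in CC-M, was higher in CC-S (4.00) by 1.24 (0.0697). CML41 was lower still in CC-S (4.28), by -0.96 with an interval from -1.46 to -0.47 (limma adjusted p = 0.112). A p that misses the threshold does not show that the levels of induction act alike.

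The 3 called genes were AT1G21326, AT2G32880 and EXO. AT1G21326 was at 5.71, 5.72 and 5.76 in VISUAL, at 7.02, 6.99 and 6.83 in CC-M and at 8.14, 8.41 and 8.04 in CC-S. AT2G32880 was at 7.08, 7.02 and 7.07, then 8.17, 7.95 and 8.33, then 9.35, 9.19 and 9.28 in the same order of groups. Both formed 3 separate levels, rising by 1.22 and 1.09 from VISUAL to CC-M and by 1.25 and 1.13 from CC-M to CC-S (limma adjusted p = 0.0346 for each of the latter). EXO, which overlapped between VISUAL and CC-M, was at 6.25, 5.68 and 6.40 in CC-S, below CC-M by -1.77 (limma adjusted p = 0.0472). The count of 3 was 143 without CC-S replicate 5 and 1 without VISUAL replicate 5, and limma called 3 without CC-M replicate 3. Without each of the remaining arrays (VISUAL replicates 3 and 4, CC-M replicates 4 and 5, CC-S replicates 3 and 4) it called 0.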

How the data were processed

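RNA of 9 samples (3 each of VISUAL, CC-M and CC-S, by their labelled source names) was measured on 1-colour Affymetrix arrays. The authors deposited 38408 probe sets per array as log2 values, made with Affymetrix Expression Console per the submitters' processing notes. No source used here gives its version, background correction or normalization. The values were used as deposited. No column was left without a sample (0), and no 2 columns were identical. Arrays carry no read depth, and their number limits the precision.

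Probe sets were named through the platform annotation, with symbols updated through RefSeq (TAIR10.1): 16722 named 1 gene (16574 matched there), 759 several and 20927 none. A gene stands as its brightest probe set. Of coding genes known by locus only, 86.3% were measured, and of those with a symbol 16.8%, so gene families are covered in part.

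limma 3.58.1 in R 4.3.3 fitted 1 mean per group over all 9 arrays (6 residual and 2.65 prior degrees of freedom, intensity trend). Tests were two-sided, with Benjamini-Hochberg adjustment across every probe set and a threshold of 0.05. Every adjusted p in the text is from this fit, except those given for a left-out array. Those are from the same model fitted without that array. The script was tested on simulated data. Python 3.11.15 and pandas 2.3.3 served for counts and summaries.

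The members and gene lists were chosen with earlier results of these data known, so lists are given as counts and medians with no test. Named were the 20 largest rises and falls, up to 4 called members of each list (the first by p where none was called) and LBD16, SAPL, SWEET11, ARR15 and EXO. Further list members and neighbouring genes were named after their values had been seen, and 7 wrong matches of a symbol were removed from lists. Alternatives were other scalings, filters on dim probe sets (the lowest 20% or 40%), other variance models, a test beyond 1.5-fold, the mean over probe sets, a replicate block and leaving out each array. CC-S was compared with CC-M only directly, since its contrast with VISUAL shares the VISUAL arrays. The direct contrast in turn shares the CC-M arrays with the choice of the largest changes. Sequences were not used here.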

Additional observations from a re-analysis of the deposited data

Results flagged for a closer look

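CC-S and CC-M differed, by the direct test of that difference, at 3 genes. AT1G21326 was 1.25 higher in CC-S on the log2 scale (95% interval 1.01 to 1.49) and AT2G32880 was 1.13 higher (0.90 to 1.36), each with a limma adjusted p of 0.0346. Both had also risen from VISUAL to CC-M, by 1.22 and 1.09. EXO differed by -1.77 (interval -2.17 to -1.36, limma adjusted p = 0.0472), with no call between CC-M and VISUAL. These calls did not survive the loss of most single arrays: 0 genes were called without VISUAL replicate 3 or 4, CC-M replicate 4 or 5, or CC-S replicate 3 or 4.

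Signal also changed outside the genes described. Of 21686 probe sets that name several genes or none, 2483 were called between CC-M and VISUAL, and they were not analysed further here.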

How the results depend on the processing

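The count of genes called between CC-S and CC-M (3) was the least stable. It was 17 with quantile normalization, 16 with arrays centred on their medians, 48 and 125 without the dimmest 20% and 40% of probe sets, 175 over probe sets naming 1 gene, 361 with arrays weighted by quality and 0 without the intensity trend or in the test beyond 1.5-fold. Between CC-M and VISUAL, that last test called 484 probe sets (290 higher, 194 lower) and 210 genes (128 higher, 82 lower, 209 of them at least 2-fold), as its threshold is stricter by construction. Testing only probe sets that name 1 gene called 2391 of them (1246 higher, 1145 lower), since fewer were tested. Counted over genes, that setting called more than the main fit, 2382 (1241 higher, 1141 lower) against 1981.

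Leaving out 1 array called 2450 (without CC-M replicate 4) to 4666 probe sets (without VISUAL replicate 4), 1328 to 2781 higher and 1122 to 1965 lower. For genes the range was 1036 to 2001, with 558 to 1121 higher, 478 to 914 lower and 478 to 643 changed at least 2-fold. For CC-S with CC-M it was 0 to 143. Per-array counts were smallest without any CC-M array or VISUAL replicate 5, and the cause was not tested.

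Called genes followed through the alternatives numbered 177. They were named by the rule, held in a list, among the adjacent pairs with the largest joint changes, or also called between CC-S and CC-M. Of the 177, 61 kept their call in every alternative that could be run for them and 126 in all but the test beyond 1.5-fold. There were 21 alternatives for each, except for 15 dim genes (5 of the 61 and 10 of the 126) that a filter on dim probe sets removed, which left at least 19. The other 116 lost it in at least 1, and 0 changed direction. An uncalled gene near 0, PGY1 of the cytosolic ribosome (0.05), was at -0.0193 after median centring and at -0.0228 to 0.0943 without 1 array. Of called genes, 52.7% were higher in CC-M, against 49.2% after quantile normalization and 43.7% after median centring, which set the median change of all genes to -0.041 and -0.0829.

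Same-numbered VISUAL and CC-M arrays deviated together only weakly (r = 0.0231, 0.056 and 0.0703 for replicates 3, 4 and 5). CC-M replicates 4 and 5 were most like the VISUAL array of their own number and CC-M replicate 3 most like VISUAL replicate 4. CC-M and CC-S gave r = 0.121, -0.0328 and 0.119. As these pairs were not all above 0.1 and no label ties the numbers to a shared batch, the numbers were not taken to pair the samples. With the replicate block 1969 genes were called (1049 higher). The deposited values carry no detection calls, so changes of genes near the floor, such as AT4G15700 in VISUAL, are limited by background.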

Other observations

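Several smaller groups held changes not described above. Among 17 bHLH transcription factors 3 rose and 0 fell (17.6% called against 12.0% of all genes), with a median of -0.09. bHLH94 (AT1G22490) was at 3.58, 4.18 and 4.1 in VISUAL and at 5.75, 6.28 and 5.81 in CC-M, a rise of 2.00 ± 0.22 with no overlap (limma adjusted p = 0.000912). Its relative bHLH96 (AT1G72210) rose by 0.75 ± 0.10 (limma adjusted p = 0.0019), and PIF7, a factor of shade responses, by 1.17 ± 0.21 (0.00857). Of 9 genes of iron homeostasis 1 rose (11.1% called against 12.0% of all genes), PYE, a bHLH repressor of the iron deficiency response. PYE rose by 0.69 (limma adjusted p = 0.0144). Its call ended without CC-M replicate 4 or 5. Among 44 CLE, RALF and other small signal peptides 3 fell and 0 rose (6.82% called against 12.0% of all genes). CLE18 went from 4.75, 4.11 and 4.40 to 2.88, 3.02 and 2.93, a change of -1.48 ± 0.17 (limma adjusted p = 0.00119), and 1 of the 44 was called without CC-M replicate 3.

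Of 32 serine carboxypeptidase-like genes 2 rose and 2 fell (12.5% called against 12.0% of all genes), with a median of -0.01. This list was drawn up after values had been seen. Among its members, scpl28 fell by -1.47 ± 0.18 (limma adjusted p = 0.00144) and scpl29 rose by 1.03 ± 0.16 (0.00489). SCPL45 was at 6.27, 6.52 and 6.05 in VISUAL and at 5.39, 4.69 and 5.22 in CC-M (change -1.18, limma adjusted p = 0.00866), while its CC-S mean of 6.34 was 1.24 above CC-M (0.0648). Of 26 cytochrome P450 genes, nearly all of the CYP71B group, 1 rose (3.85% called against 12.0% of all genes). The rise was that of CYP71B29, by 0.85 ± 0.14 (limma adjusted p = 0.00567).

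Exactly equal deposited values on all arrays of a group occurred at 163 genes in VISUAL and 267 in CC-M, among them Fes1A in CC-M. Of the called genes, 4 rises and 4 falls had 3 equal CC-M values, so that their spread within CC-M was 0 as deposited. At 107 called genes at least 2 of the 3 CC-M values were equal, among them AT5G18600 and UGT85A2.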
